A study of Mus musculus with 14 samples.

Results

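Lipoprotein lipase and 6 genes that position, mature, inhibit or use the products of the enzyme were followed across 14 RNA-seq libraries of mouse tibia. The 7 genes (Lpl, Gpihbp1, Lmf1, Angptl4, Angptl8, Cd36 and Vldlr) were chosen by symbol from the 55291 symbols of the count table, with earlier results of these data known, among them a lower Lpl level after hippuric acid. All 7 were among the 21761 genes that passed a filter on low counts. Because that result was in view, member values of the hippuric acid group against its control are a description with no test.

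The animals were wild-type female C57Bl/6 mice. Sham surgery gave the group named sham (3 libraries), and all other groups had been ovariectomized (OVX), which removes the main source of estrogen. After ovariectomy the mice received phosphate-buffered saline (OVX-PBS, 3 libraries), hippuric acid (OVX-HA, 3), 3-(3-hydroxyphenyl)propionic acid (OVX-PPA, 2) or zoledronic acid (OVX-ZA, 3), an anti-resorptive bisphosphonate used in bone disease. Dosing started 2 to 4 days after surgery and went on for 8 weeks. Neither doses nor ages were stated in the sources used here. Nothing in the labels ties a library to 1 animal, and p-values therefore measure only the spread between these samples, which may be technical.

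Lipoprotein lipase hydrolyses the triglyceride of circulating lipoproteins at the capillary wall and so supplies fatty acids to fat, muscle and marrow. LMF1 folds the enzyme in the endoplasmic reticulum, and GPIHBP1 carries it across endothelial cells and holds it on their luminal face. ANGPTL4 and ANGPTL8 restrain it, ANGPTL4 mostly in fasting and ANGPTL8 after feeding. CD36 takes up long-chain fatty acids, and the VLDL receptor binds triglyceride-rich particles. In bulk tibia, fewer cells of a type and less RNA per cell cannot be told apart.

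Depth, in M estimated counts per library, was 29.2 to 32.6 for sham, 20.1 to 35.2 for OVX-PBS, 31.3 to 35.4 for OVX-HA, 18.7 to 29.7 for OVX-PPA and 11.9 to 25.1 for OVX-ZA. Osteoblast and osteoclast markers were present in every group, with summed levels of 929 to 5640 and 452 to 2220 CPM (read counts scaled by TMM factors to a common library size). Muscle markers summed to 28500 to 64200 CPM. Transcripts of the central nervous system were nearly missing from OVX-HA 2 and OVX-PBS 1, with a list mean of -0.21 and 0.26 log2 CPM against 5.05 to 6.67 in the other 12 libraries. The lymph node gene Glycam1 read 32.5, 14.6 and 38.6 CPM in sham 3, OVX-ZA 1 and OVX-ZA 2 and at most 0.915 elsewhere.

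The upstream sequence of members is given first and was not related to their levels. RefSeq promoter entries (GRCm38.p6) were found for 4 of the 7 members, namely Cd36, Angptl8, Lmf1 and Vldlr. The 250 bases before the start of the promoter entry are given 5′ to 3′ in gene sense for the most variable member, Angptl8, and for both uptake genes. Capitals mark every match to 5 short motifs searched on both strands.
Cd36 (chr5:17835897-17836146, minus strand): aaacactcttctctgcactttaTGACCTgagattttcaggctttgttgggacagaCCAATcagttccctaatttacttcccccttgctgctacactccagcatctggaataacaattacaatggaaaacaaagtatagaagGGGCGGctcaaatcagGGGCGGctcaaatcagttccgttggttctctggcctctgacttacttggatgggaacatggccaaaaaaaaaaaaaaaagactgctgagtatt
Angptl8 (chr9:21835260-21835509, plus strand): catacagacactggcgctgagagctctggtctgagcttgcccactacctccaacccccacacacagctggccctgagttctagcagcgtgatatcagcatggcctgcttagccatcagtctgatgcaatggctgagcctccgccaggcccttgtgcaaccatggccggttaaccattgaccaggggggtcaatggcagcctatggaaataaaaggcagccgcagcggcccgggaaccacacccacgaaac
Vldlr (chr19:27216234-27216483, plus strand): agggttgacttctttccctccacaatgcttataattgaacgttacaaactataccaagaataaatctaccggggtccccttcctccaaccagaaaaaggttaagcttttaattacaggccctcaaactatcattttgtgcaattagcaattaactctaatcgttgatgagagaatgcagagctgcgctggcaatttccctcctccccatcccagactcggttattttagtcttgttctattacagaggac
The motifs were the nuclear receptor core AGGTCA, the GC box GGGCGG, the CCAAT box, the TATA sequence TATAAA and the E-box CACGTG. Cd36 held AGGTCA on the opposite strand 228 bases before the start, CCAAT 195 bases before it and GGGCGG 109 and 93 bases before it. Angptl8 and this first Vldlr entry held 0 matches, and Lmf1 held GGGCGG on the opposite strand 108 bases before its start. A second Vldlr entry (chr19:27216770-27217019, plus strand), not printed here, held 2 matches on the opposite strand, CCAAT 78 and GGGCGG 42 bases before its start. Among 32851 promoter entries of the same length, AGGTCA was found in 14%, GGGCGG in 32.7%, CCAAT in 33.8%, TATAAA in 12.4% and CACGTG in 6.02%. The start of an entry was not always the start of the gene span given below. The Cd36 window and the second Vldlr window lie inside the gene. The Lmf1 window (chr17:25578924-25579173) runs past the gene start at 25579085. These matches describe letters in the window and are not evidence of binding.

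Lpl, the enzyme itself, was among the most abundant transcripts of the tissue, at the 99.7th percentile of tested genes by mean CPM. The gene (ENSMUSG00000015568) lies on mm10 chromosome 8 at 68880491-68907448 on the plus strand. Sham 1, 2 and 3 read 874, 621 and 1240 CPM, the OVX-PBS libraries 1590, 1170 and 895, and the OVX-HA libraries 970, 720 and 824. Levels were 952 and 900 CPM with PPA and 903, 978 and 887 with ZA. OVX-PBS 1 was the highest library and sham 2 the lowest, a 2.56-fold range, and every pair of groups overlapped. Means ± SD for sham, OVX-PBS, OVX-HA and OVX-ZA were 912 ± 311, 1220 ± 348, 838 ± 126 and 923 ± 48.4 CPM (n = 3 each), and OVX-PPA averaged 926 ± 36.6 (n = 2). The order was therefore OVX-PBS, OVX-PPA, OVX-ZA, sham and OVX-HA, and no neighbours in it differed beyond their spread. The log2 difference of OVX-PBS from sham was 0.42 ± 0.25 (SE), with a 95% interval of -0.13 to 0.96 and an edgeR quasi-likelihood adjusted p of 0.913 (Benjamini-Hochberg). OVX-HA against OVX-PBS was -0.54 ± 0.25, given as a description. Without OVX-PBS 1 and OVX-HA 2, the libraries with almost no nervous transcripts, these log2 differences were 0.20 and -0.23. OVX-PBS against sham was 0.17 without sham 2 and 0.18 without OVX-PBS 1, but 0.71 without sham 3, also where the other libraries with lymph node transcripts were left out with it.

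**Figure D1:**
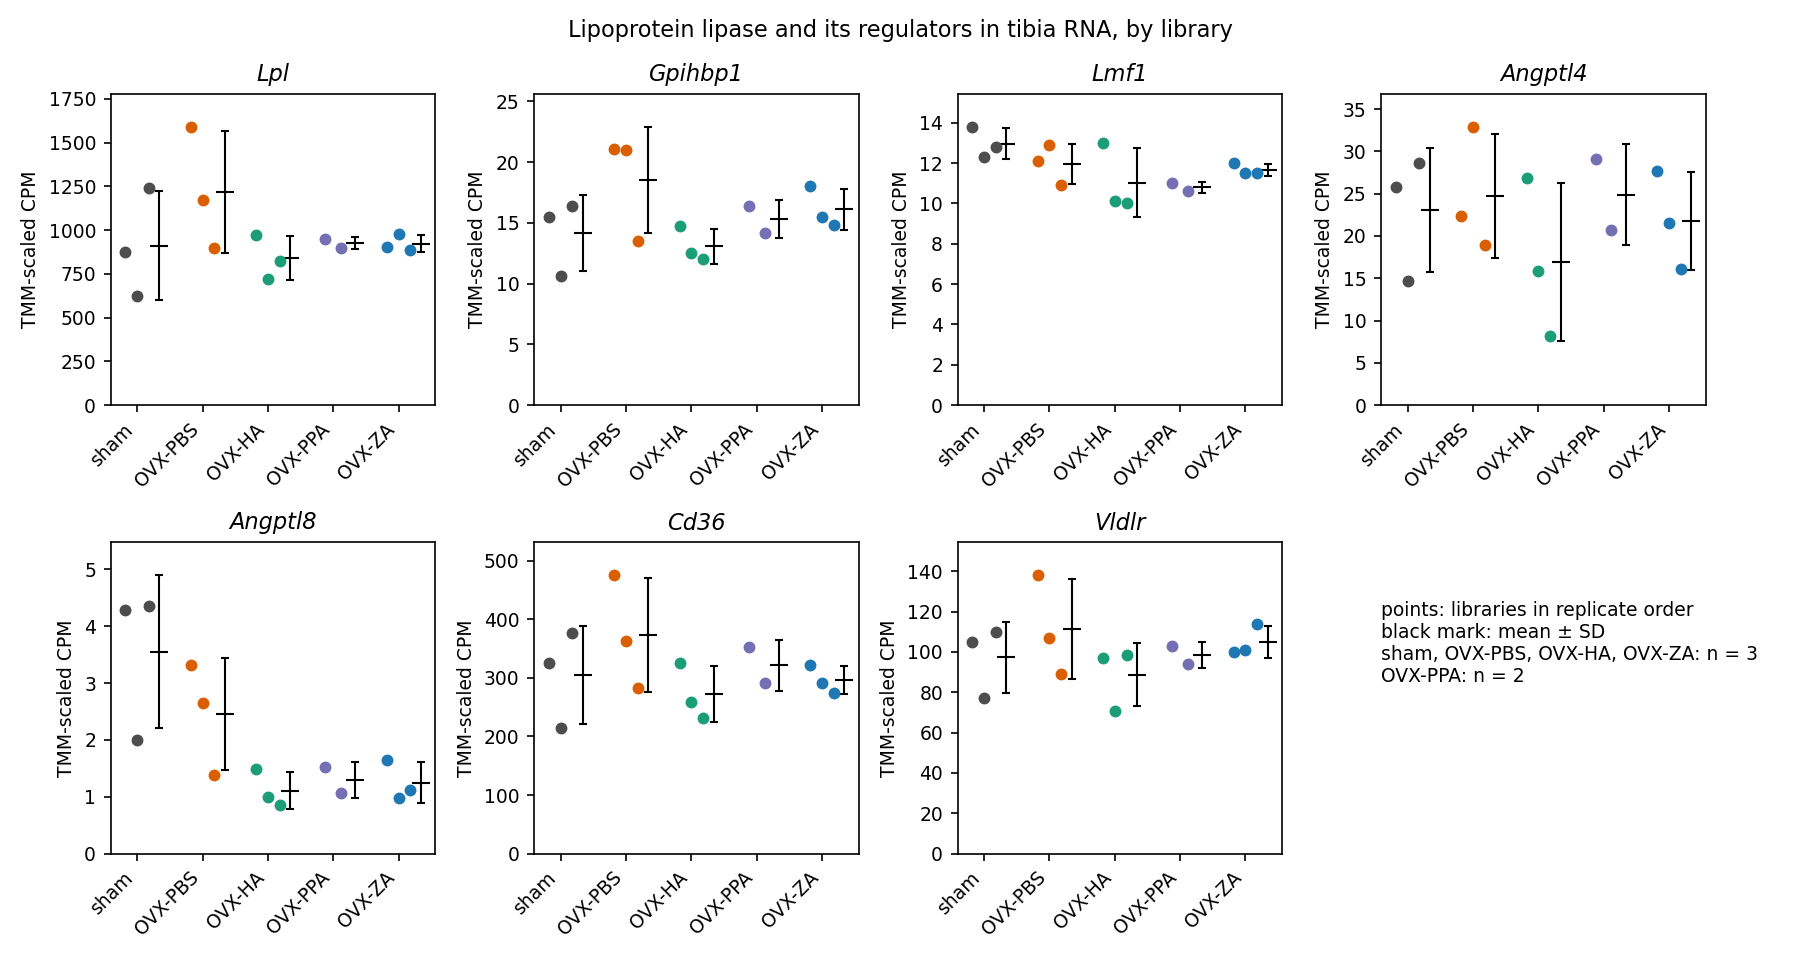
Level of each member in TMM-scaled CPM (y axis, starting at 0) for every library, by group (x axis); points are libraries and bars the group mean ± SD. Lpl spans 621 to 1590 CPM and overlaps between all groups, and the 8 libraries of the 3 compounds lie below the 3 sham libraries for Angptl8.

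Gpihbp1 (ENSMUSG00000022579, chromosome 15, 75596628-75599481, plus strand), which anchors the enzyme on capillary endothelium, moved within a 1.99-fold range. Sham libraries read 15.5, 10.6 and 16.4 CPM, OVX-PBS libraries 21.1, 21 and 13.5, and OVX-HA libraries 14.7, 12.5 and 12. With PPA it was 16.4 and 14.2 CPM, and with ZA 18, 15.5 and 14.8. As for Lpl, OVX-PBS 1 was the highest library and sham 2 the lowest, and OVX-PBS overlapped with every other group. Means ± SD in descending order were 18.5 ± 4.32 CPM for OVX-PBS, 16.1 ± 1.67 for OVX-ZA, 15.3 ± 1.58 for OVX-PPA, 14.2 ± 3.14 for sham and 13.1 ± 1.45 for OVX-HA (n = 3, or 2 for OVX-PPA). OVX-PBS stood above sham by a log2 difference of 0.38 ± 0.20 with an edgeR adjusted p of 0.913, and of 0.18 without sham 2. Per kb of exon, Gpihbp1 stood at a median of 5.93 CPM against 86 for Lpl, 9.98 for Vldlr, 6.2 for Angptl4, 1.73 for Angptl8 and 0.865 for Lmf1. The length used is the union of all annotated exons, from 865 nt for Angptl8 to 13589 nt for Lmf1. Ratios between genes per kb depend on it.

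Lmf1 (ENSMUSG00000002279, chromosome 17, 25579085-25662826, plus strand), the folding factor of the enzyme, was the steadiest member, with a coefficient of variation of 9.84% over the 14 libraries. Sham libraries read 13.8, 12.3 and 12.8 CPM, OVX-PBS libraries 12.1, 12.9 and 10.9, and OVX-HA libraries 13, 10.1 and 10. The 2 libraries of OVX-PPA gave 11 and 10.6 CPM, and those of OVX-ZA 12, 11.5 and 11.5. Sham 1 was the highest library and OVX-HA 3 the lowest, 1.38-fold apart, while OVX-PBS overlapped with every other group. Means ± SD in descending order were 13 ± 0.754 CPM for sham, 12 ± 0.996 for OVX-PBS, 11.6 ± 0.277 for OVX-ZA, 11 ± 1.73 for OVX-HA and 10.8 ± 0.315 for OVX-PPA (n = 3, or 2 for OVX-PPA).

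Angptl4 (ENSMUSG00000002289, chromosome 17, 33773750-33781830, minus strand), the inhibitor that fasting and PPAR activation raise, varied 4.01-fold between libraries. Sham read 25.8, 14.7 and 28.6 CPM, OVX-PBS 22.4, 32.9 and 18.9, and OVX-HA 26.8, 15.8 and 8.19. In OVX-PPA it read 29.1 and 20.7 CPM and in OVX-ZA 27.7, 21.5 and 16.1. The spread lay within groups: OVX-HA alone ran from the lowest library of all to one above the OVX-PBS mean. Means ± SD in descending order were 24.9 ± 6 CPM for OVX-PPA, 24.7 ± 7.28 for OVX-PBS, 23 ± 7.35 for sham, 21.7 ± 5.83 for OVX-ZA and 16.9 ± 9.35 for OVX-HA (n = 3, or 2 for OVX-PPA). Per kb of exon, Angptl4 stood at 2.94% of Lpl in OVX-HA 3 and at 9.08% in OVX-ZA 1. In OVX-PBS 1, the library with the most Lpl, it stood at 4.17%.

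Angptl8 was the member with the lowest CPM and the highest coefficient of variation (61.2%), and the 3 compound groups lay low. The gene encodes a feeding-induced inhibitor of lipoprotein lipase, and liver and fat are its known main sources. Its counts were small, 20 to 133 per library. Sham read 4.29, 2.00 and 4.36 CPM, OVX-PBS 3.32, 2.65 and 1.39, and OVX-HA 1.48, 0.995 and 0.852. In OVX-PPA it read 1.52 and 1.07 CPM and in OVX-ZA 1.65, 0.983 and 1.11. All 8 libraries of the 3 compounds thus lay below all 3 sham libraries, while OVX-PBS 3 lay among the compound libraries. This pattern was noticed after the values were seen, and 46 of the 21761 genes tested (0.211%) show it. No member had all 8 below all 3 OVX-PBS libraries, which 47 genes (0.216%) do. Means ± SD for sham, OVX-PBS, OVX-HA and OVX-ZA were 3.55 ± 1.34, 2.45 ± 0.98, 1.11 ± 0.328 and 1.25 ± 0.353 CPM (n = 3 each), and OVX-PPA averaged 1.29 ± 0.318 (n = 2).

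For Angptl8 the outcome of a test for any difference among the 5 groups depended on the tool. The edgeR quasi-likelihood p was 0.00338, rank 59 of 21761, with a Benjamini-Hochberg adjusted p of 1.00. The DESeq2 likelihood ratio test gave an adjusted p of 0.048, while over all other alternatives, each fitted with edgeR, it ran from 0.622 to 1.00. With edgeR 1 gene (0.0046%) passed, the osteoclast fusion gene Ocstamp, and 403 had an unadjusted p below 0.05. With DESeq2 46 of 24878 genes (0.185%) passed, Angptl8 being the only member among them. Both tests include the hippuric acid group, and Angptl8 is singled out here after its values were seen.

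Angptl8 (ENSMUSG00000047822, chromosome 9, 21835510-21837347, plus strand) lies inside Dock6, a guanine nucleotide exchange factor gene on the minus strand (21799860-21852635), and the sources used here do not say if reads were counted by strand. Of the 865 exon bases of Angptl8, 0 lie in Dock6 exons. Dock6 itself ran from 29.3 to 39.4 CPM, and sham, OVX-PBS and OVX-HA averaged 35.8 ± 3.77, 34.7 ± 3.41 and 35.1 ± 4.12 (n = 3 each). Angptl8 stood at 6.28% to 11.9% of Dock6 CPM in sham, 4.36% to 8.62% in OVX-PBS and 2.32% to 4.23% over the compound libraries. Reads from unspliced Dock6 RNA in Angptl8 were not tested for. Alb, a defining transcript of liver, read 13.4 and 13.3 CPM in sham 1 and 2, 0.829 in sham 3 and at most 3.49 in the other groups. The part of liver RNA in these values was not tested.

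**Figure D2:**
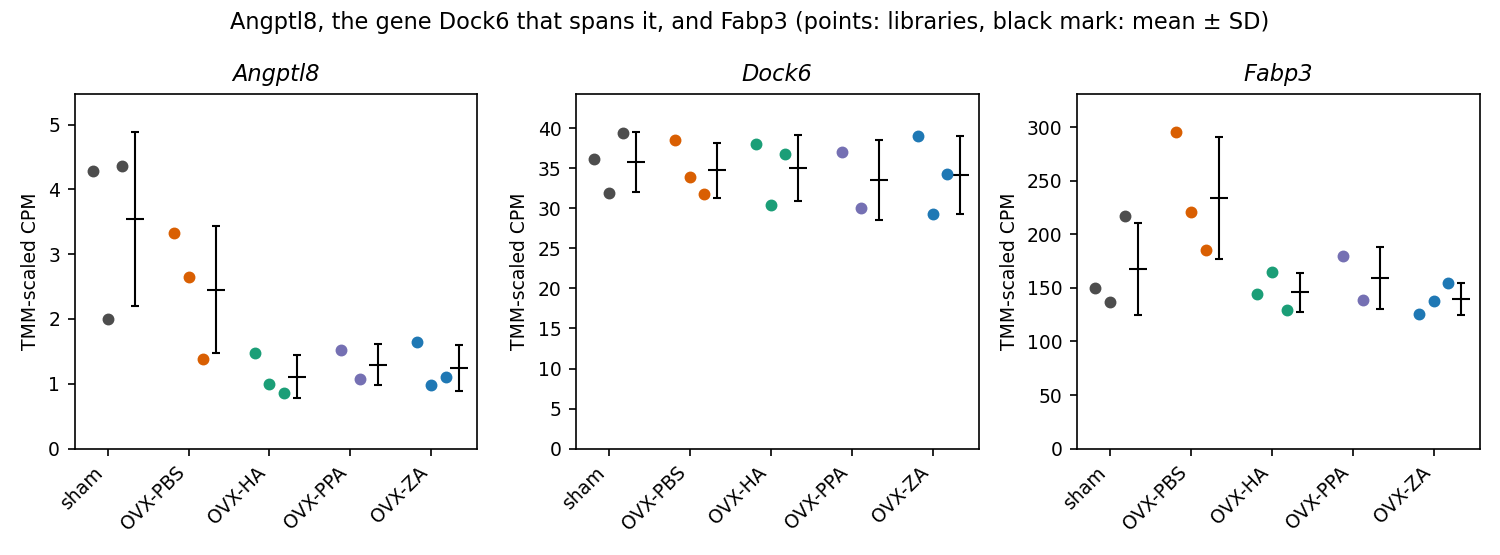
Levels in TMM-scaled CPM (y axis, starting at 0) of Angptl8, of Dock6, which spans it on the other strand, and of the fatty acid binding gene Fabp3, by group (x axis); points are libraries and bars the group mean ± SD. Angptl8 is at most 1.65 CPM in the 8 compound libraries against at least 2.00 in sham, and Dock6 stays between 29.3 and 39.4 CPM.

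Cd36 (ENSMUSG00000002944, chromosome 5, 17781690-17888801, minus strand), the fatty acid translocase, had a median of 85.4 CPM per kb of exon, against 86 for Lpl. Mean CPM was 313 against 966, with exon unions of 3590 and 10478 nt, so the closeness per kb rests on the lengths used. Sham read 325, 214 and 377 CPM, OVX-PBS 475, 363 and 282, and OVX-HA 326, 259 and 232. In OVX-PPA it read 352 and 291 CPM and in OVX-ZA 322, 291 and 275. Its highest and lowest libraries were those of Lpl, OVX-PBS 1 and sham 2, and all groups overlapped. Means ± SD in descending order were 373 ± 97.1 CPM for OVX-PBS, 321 ± 43.2 for OVX-PPA, 305 ± 83 for sham, 296 ± 24 for OVX-ZA and 272 ± 48.6 for OVX-HA (n = 3, or 2 for OVX-PPA). OVX-PBS stood above sham by a log2 difference of 0.29 ± 0.23 with an edgeR adjusted p of 0.913. It was 0.06 without sham 2, 0.08 without OVX-PBS 1 and 0.47 without sham 3.

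Vldlr (ENSMUSG00000024924, chromosome 19, 27216484-27254231, plus strand), the receptor for triglyceride-rich particles, ranged 1.95-fold. Sham read 105, 77.2 and 110 CPM, OVX-PBS 138, 107 and 89.0, and OVX-HA 96.8, 70.7 and 98.6. The OVX-PPA libraries read 103 and 94.1 CPM and the OVX-ZA libraries 99.9, 101 and 114. OVX-PBS 1 was again highest and OVX-HA 2 lowest, both of them libraries with almost no nervous transcripts. From high to low the groups averaged 111 ± 24.6 CPM (OVX-PBS), 105 ± 7.76 (OVX-ZA), 98.7 ± 6.4 (OVX-PPA), 97.4 ± 17.7 (sham) and 88.7 ± 15.6 (OVX-HA), with n = 3 or, for OVX-PPA, 2. For Gpihbp1, Angptl4, Cd36 and Vldlr too, neighbouring group means lay closer than the larger of their SDs.

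Ovariectomy was examined by setting OVX-PBS against sham. After ovariectomy Lpl, Gpihbp1, Angptl4, Cd36 and Vldlr averaged higher, and Lmf1 and Angptl8 lower, than after sham surgery, but none of the 7 passed edgeR quasi-likelihood with Benjamini-Hochberg adjustment (adjusted p 0.913 to 0.974). No gene passed (0%), 594 had an unadjusted p below 0.05, and DESeq2 called 0. The Angptl4 difference turned to -0.16 without OVX-PBS 2 or without sham 2. Angptl8 had a log2 difference of -0.55 ± 0.38 with a 95% interval of -1.37 to 0.28. The median log2 difference was 0.192 over the 7 members and 0.00787 over all genes tested. The groups overlapped for 7 of 7 members, while 7.63% of tested genes did not overlap.

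The compounds were each set against the same 3 OVX-PBS libraries, so their differences share a control. In OVX-HA all 7 members averaged lower than in OVX-PBS, with a median log2 difference of -0.503 against 0.0143 over all genes. Angptl8 differed by -1.12 ± 0.39, Angptl4 by -0.55 ± 0.39, Gpihbp1 by -0.50 ± 0.20, Cd36 by -0.46 ± 0.23 and Vldlr by -0.33 ± 0.18. Without OVX-HA 2 and OVX-PBS 1 they were -0.80 for Angptl8, -0.58 for Angptl4, -0.40 for Gpihbp1, -0.24 for Cd36 and -0.04 for Vldlr. The Angptl4 value was -1.05 without OVX-HA 1, -0.28 without OVX-PBS 2 and -0.22 without OVX-HA 3. The contrast itself had 0 genes called (0%), 319 with an unadjusted p below 0.05 and 0 by DESeq2, and 4.08% of genes did not overlap. Nothing is read from these shares for the members.

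In OVX-PPA 6 of 7 members averaged lower than in OVX-PBS and Angptl4 stood at 0.01 on the log2 scale, and below 0 without OVX-PPA 1 (-0.26) and without OVX-PBS 1 or OVX-PBS 3 (-0.059 and -0.11). Vldlr turned from -0.17 to 0.0077 without OVX-PBS 1. Lpl differed by -0.40 ± 0.28 and Angptl8 by -0.92 ± 0.45, the latter with a 95% interval of -1.90 to 0.07. They were -0.15 and -0.65 without OVX-PBS 1 and OVX-HA 2. Every member had an edgeR quasi-likelihood adjusted p of 1.00 (Benjamini-Hochberg). No gene passed (0%), 408 had an unadjusted p below 0.05 and DESeq2 called 0. The members' median was -0.217 against -0.0179 for all genes, and 0 of 7 members had groups that did not overlap, against 20.4% of genes.

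In OVX-ZA all 7 members averaged lower than in OVX-PBS, with a median of -0.205 against -0.0372 over all genes, of which 56.2% were lower. Lpl differed by -0.40 ± 0.25 (95% interval -0.94 to 0.14), Cd36 by -0.34 ± 0.23 and Angptl8 by -0.98 ± 0.41 (-1.87 to -0.10). Without OVX-HA 2 and OVX-PBS 1 these were -0.14, -0.10 and -0.70. The edgeR quasi-likelihood adjusted p was 0.899 for all 3 of these genes and at most 0.949 for any member. edgeR called 0 genes (0%), with 731 at an unadjusted p below 0.05, and DESeq2 called 31 genes, of which 0 were members. Groups did not overlap for 0 of 7 members and for 14.2% of genes. The small differences of Lmf1 (-0.04) and Angptl4 (-0.19) changed sign without OVX-PBS 2, and that of Vldlr (-0.08) without OVX-PBS 1. In the same libraries the osteoclast markers summed to 1190 to 2220 CPM against 452 to 932 elsewhere. Their part in the member values was not tested.

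**Figure D3:**
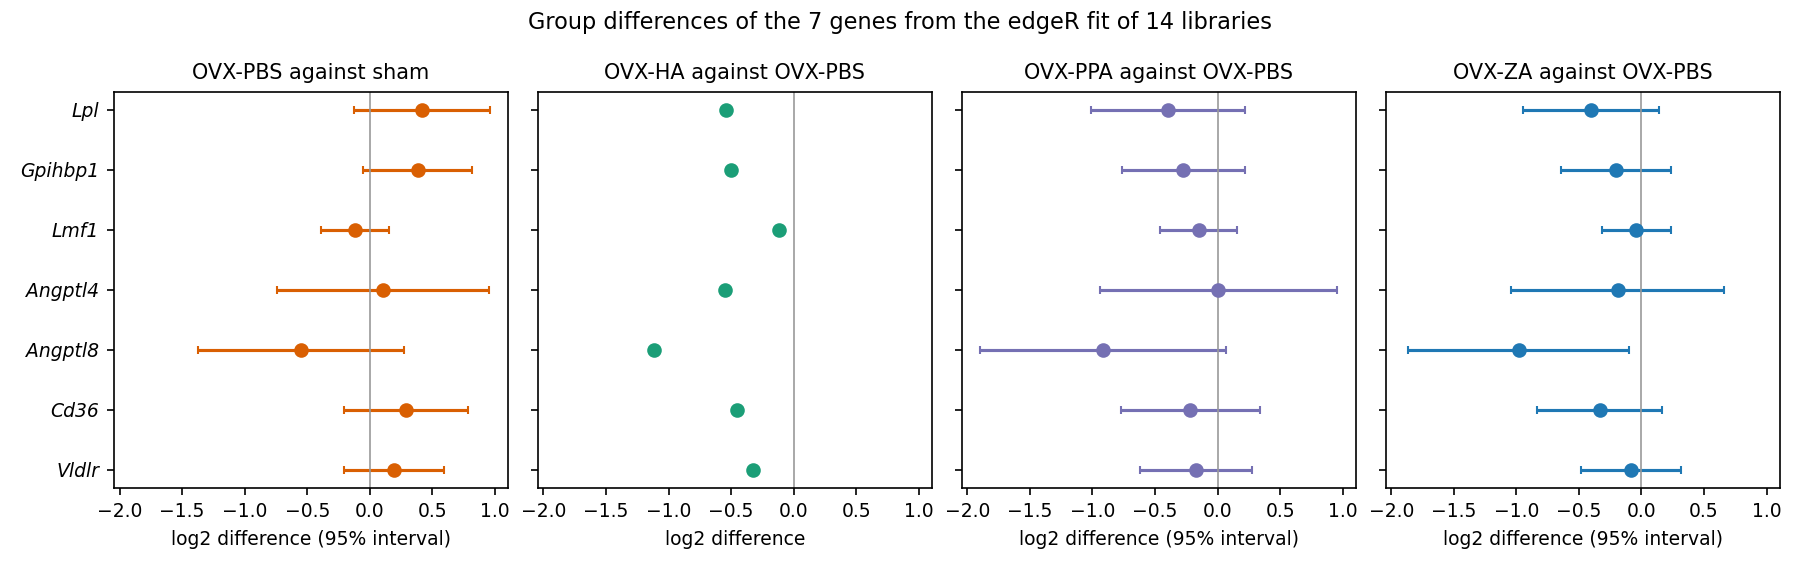
Log2 difference of each member (y axis) in 4 comparisons (panels; x axis in log2 units) from the edgeR fit; bars are 95% intervals, left out for OVX-HA against OVX-PBS, where values are a description. Angptl8 lies farthest below 0 in all 3 compound groups, at -1.12, -0.92 and -0.98.

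Hippuric acid and 3-(3-hydroxyphenyl)propionic acid are both small aromatic acids. Hippuric acid is the glycine conjugate of benzoic acid, and the other carries a phenolic hydroxyl group and a propionic acid chain. They were given for the same time at doses not given here, and 7 genes were compared in this 1 pair, with p-values adjusted over all genes tested. OVX-HA against OVX-PPA differed by -0.14 for Lpl (95% interval -0.75 to 0.46), -0.55 for Angptl4 (-1.50 to 0.39) and -0.20 for Angptl8 (-1.19 to 0.78) on the log2 scale. No member or other gene passed edgeR quasi-likelihood with Benjamini-Hochberg adjustment (adjusted p 1.00 for each member, 0% of genes), 260 genes had an unadjusted p below 0.05, and DESeq2 called 0. The Angptl8 difference turned to 0.053 without OVX-PPA 1, and that of Lmf1 (0.03) to -0.14 without OVX-HA 1 and -0.0056 without OVX-PPA 2. These intervals leave room for differences in either direction.

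Several members went up and down together from library to library. Across the 14 libraries Lpl and Cd36 had a Pearson r of 0.92 on log2 CPM, Gpihbp1 and Cd36 0.911 and Lpl and Gpihbp1 0.862. Lmf1 had an r of 0.336 to Lpl but 0.8 to Angptl8 and 0.645 to Angptl4. With values centred on group means, Lpl and Cd36 still had an r of 0.906, and without the 2 libraries lacking nervous transcripts 0.867. These are descriptions over libraries that share tissue composition and scaling.

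The levels of cell type markers differed between libraries as well. Each member was related to 5 marker lists, 35 relations in all, by a two-sided permutation test with 1e+05 resamples and Benjamini-Hochberg adjustment, and 17 passed. Lpl went with the endothelial list (r 0.939, rho 0.675, permutation p 1e-05, the smallest that the resamples can give, adjusted 0.00035) and with the adipocyte list (r 0.811, rho 0.837, permutation p 0.00024, adjusted 0.0014). Without sham 2 and OVX-PBS 1, the libraries farthest out on the endothelial list, r was 0.832. Without sham 2 and sham 3, farthest out on the adipocyte list, r was 0.685. The relation of Lpl to muscle markers (r 0.718, rho 0.516, permutation p 0.0043, adjusted 0.0107) was weaker without sham 2 and OVX-PBS 1. There r was 0.462 and the adjusted permutation p 0.19.

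Gpihbp1 and Cd36 also went with the endothelial and adipocyte lists. Gpihbp1 had an r of 0.836 to the endothelial list (rho 0.789, adjusted permutation p 0.00166), whose cells hold its protein, and 0.655 without sham 2 and OVX-PBS 1, where the adjusted permutation p was 0.0572. With group means removed this adjusted permutation p was 0.00049. That permutation ran over all 14 libraries and did not allow for the group means removed. Permutation p with group means removed are therefore likely too small. Its r to the adipocyte list was 0.801 (rho 0.732, adjusted permutation p 0.00206), and 0.772 without sham 2 and sham 3 (0.0152). Cd36 had an r of 0.887 to the adipocyte list (rho 0.938, adjusted permutation p 0.000437) and 0.892 to the endothelial list, and 0.842 and 0.73 without the 2 farthest libraries of each. Vldlr had an r of 0.808 to muscle markers (rho 0.811, adjusted permutation p 0.0015) and 0.702 without the 2 farthest libraries. Its r to the endothelial list was 0.796 (rho 0.776, adjusted permutation p 0.00379). Without sham 2 and OVX-PBS 1 that r was 0.55 and the adjusted permutation p 0.138. Without OVX-PBS 1 and OVX-HA 2 they were 0.808 and 0.00916. Angptl4 had its highest r, 0.909, to the brown fat list (rho 0.895, permutation p 2e-05, adjusted 0.00035) and 0.103 to muscle. Without OVX-HA 2 and OVX-HA 3 the r to brown fat was 0.859, and with group means removed 0.916. Angptl4 also went with the adipocyte list (r 0.788, rho 0.868, adjusted permutation p 0.00206), with r 0.799 without sham 2 and sham 3. Angptl8 had an r of 0.772 to brown fat (rho 0.741, adjusted permutation p 0.00382), and 0.744 without OVX-HA 2 and OVX-HA 3. Lmf1 had an r of 0.816 to brown fat (rho 0.723, adjusted permutation p 0.0014), and 0.648 without those libraries, where the adjusted permutation p was 0.0614. Brown fat also passed for Cd36 (r 0.769, adjusted permutation p 0.00325) and Gpihbp1 (r 0.694, 0.014). Without OVX-HA 2 and OVX-HA 3 these adjusted permutation p were 0.0152 and 0.0793. Gpihbp1 to muscle (r 0.666, adjusted permutation p 0.0196) and Vldlr to adipocyte markers (r 0.605, 0.0418) passed too. Without the 2 farthest libraries these became 0.294 and 0.19. The monocyte and macrophage list had a negative r to all 7 members, from -0.105 to -0.423, and none passed on the values as they stand. With group means removed r was -0.785 for Vldlr, -0.668 for Cd36, -0.66 for Lpl, -0.614 for Gpihbp1 and -0.608 for Angptl8. Their adjusted permutation p were 0.00194, 0.0152, 0.0152, 0.0273 and 0.0307, likely too small as said above. Lmf1 (-0.4) and Angptl4 (-0.31) did not pass there.

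**Figure D4:**
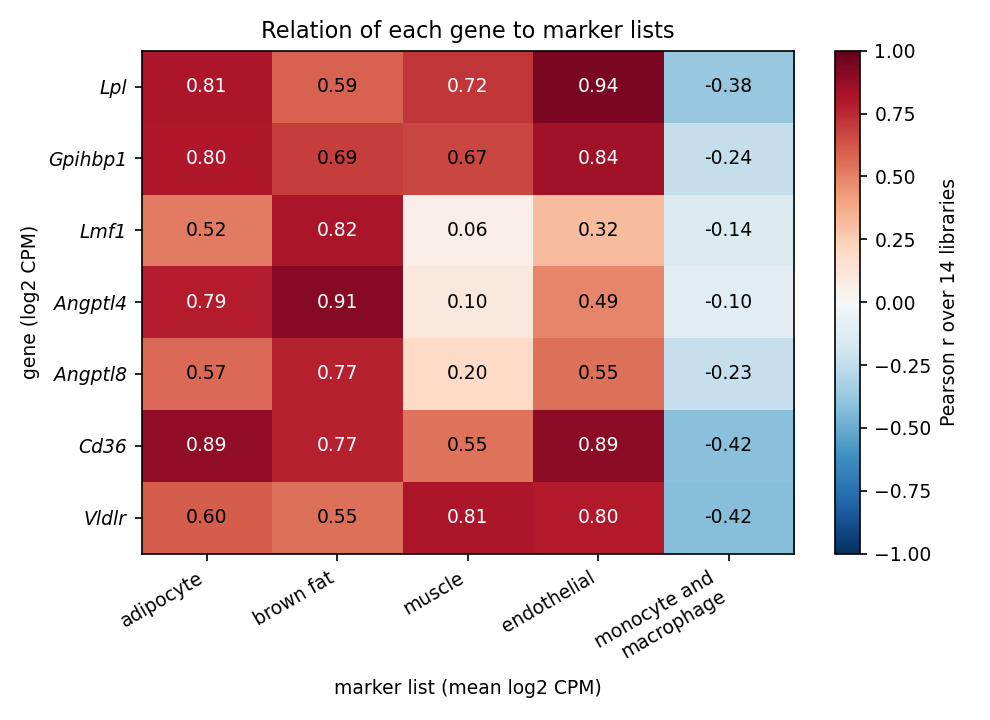
Pearson r over 14 libraries between the log2 CPM of each member (rows) and the mean log2 CPM of 5 marker lists (columns), as colour and printed value. Lpl, Gpihbp1 and Cd36 have high r to the adipocyte and endothelial lists. Angptl4 has 0.909 to brown fat and 0.788 to the adipocyte list, and Cd36 has 0.769 to brown fat. The monocyte and macrophage column is negative throughout.

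Some brown fat markers differed widely between libraries. Ucp1, the thermogenic uncoupling protein, read 226, 64.6 and 215 CPM in sham. Its level was 161, 182 and 69.3 after OVX with PBS and 141, 24.2 and 12.5 with HA. OVX-PPA read 177 and 70.5 CPM and OVX-ZA 115, 90.3 and 56.1. OVX-HA 3, with the least Ucp1, was also the library with the least Angptl4 and Angptl8. Cidea (11 CPM) and Otop1 (1.31) of the same list were lowest there too. Elovl3 was lowest in OVX-HA 2 (0.761) and Cox8b in sham 2 (81.7). Cox8b read 92.5 CPM in OVX-HA 3 and so made up most of the list sum of 118 there. Summed over the 5 brown fat markers sham, OVX-PBS, OVX-HA, OVX-PPA and OVX-ZA ran over 192 to 462, 209 to 473, 118 to 365, 214 to 399 and 216 to 329 CPM. The 8 adipocyte markers summed to 412 to 1000, 501 to 917, 424 to 802, 589 to 712 and 470 to 694 CPM in that order. The part of these cells in the member values was not tested.

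**Figure D5:**
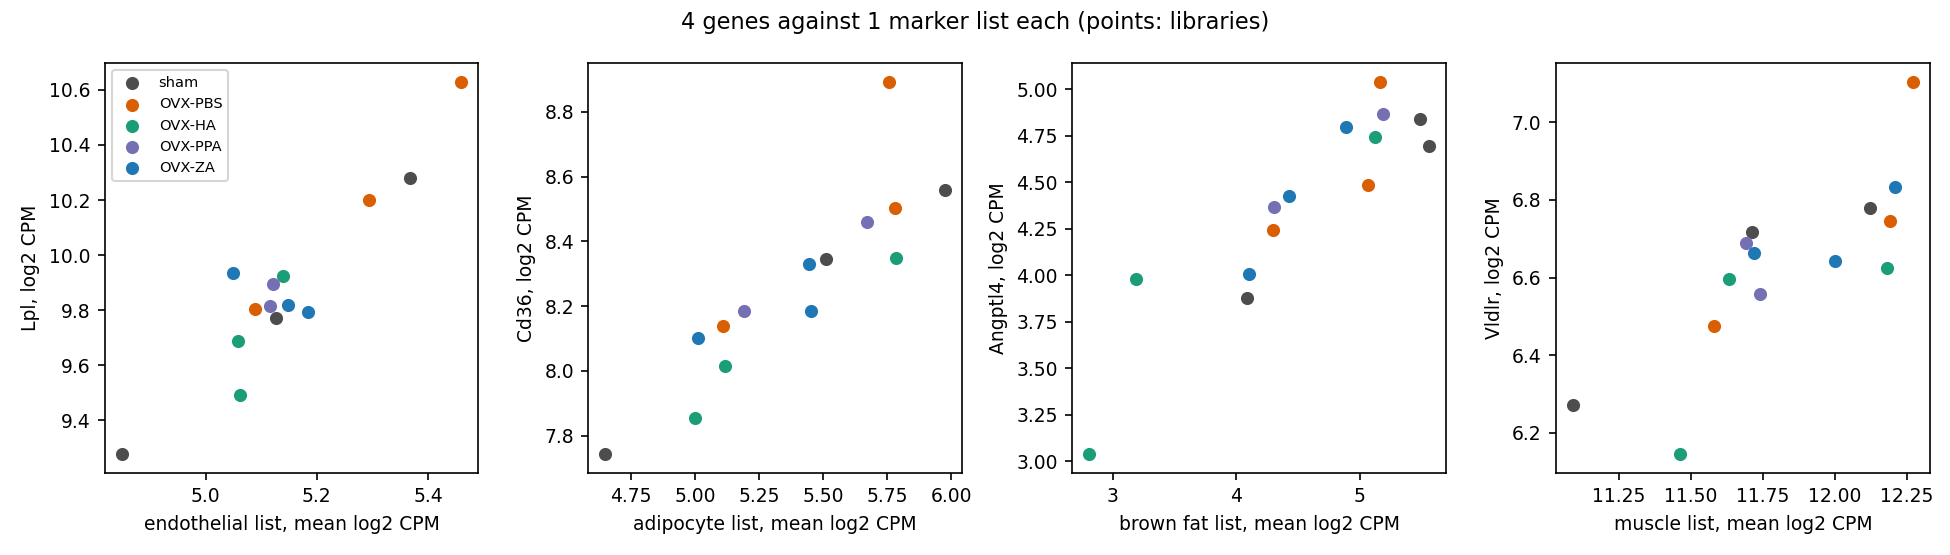
Log2 CPM of 4 members (y axes) against the mean log2 CPM of 1 marker list each (x axes); points are the 14 libraries, coloured by group. Angptl4 follows the brown fat list with an r of 0.909 and Vldlr the muscle list with 0.808, and the groups interleave along both axes.

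The genes whose levels were most like each member over the 14 libraries, among 10880 candidates (10881 for Angptl8), were read off for all 7. For Lpl they were Cpt1b, the muscle gatekeeper of mitochondrial fatty acid import (r 0.967), the imprinted RNA H19 (0.961), Acad12 (0.949), Stard7 (0.946) and Gnpat (0.945). For Cd36 they were the acyl-CoA synthetase Acsl1 (0.97) and the beta-oxidation genes Acadm (0.965) and Hadha (0.963). Vldlr was closest to Mmut (0.973), Coa5 (0.972) and Pnpla8 (0.968), and Gpihbp1 to Acat1 (0.928), Ginm1 (0.926) and Mtres1 (0.925). Angptl4 was closest to Cidea, a lipid droplet protein of brown fat (0.959), the gluconeogenic gene Pck1 (0.929) and the adipogenic factor Cebpa (0.927). Lmf1 was closest to Acsf3 (0.896), Apoc1 (0.871) and Gpat4 (0.869), and Angptl8 to Mrpl10 (0.903), Lzts2 (0.857) and Csad (0.844). These r values describe the closest of many genes and carry no test.

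Other genes of the pathway were taken from 5 lists of 58 genes, of which 57 were tested and Apoa5 was not. None was called by edgeR in any comparison. Set against sham, OVX-PBS had 28 of the 57 higher and 29 lower, with a median log2 difference of -0.00406. In each of OVX-HA, OVX-PPA and OVX-ZA 19 averaged higher and 38 lower than in OVX-PBS, with medians of -0.117, -0.0998 and -0.112. Of all genes tested 46.8%, 53% and 56.2% were lower in these groups. The 3 counts share the OVX-PBS libraries.

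Fabp3, which carries fatty acids in the cytosol of muscle, had the smallest p of the uptake genes in OVX-ZA. Sham libraries read 150, 137 and 217 CPM, OVX-PBS libraries 296, 221 and 185, and OVX-HA libraries 144, 165 and 129. The OVX-PPA libraries read 180 and 139 CPM and the OVX-ZA libraries 126, 138 and 155. All 8 compound libraries lay below the lowest OVX-PBS library, by a narrow margin of 180 CPM in OVX-PPA 1 against 185 in OVX-PBS 3. No member showed this, and 47 of the 21761 genes tested (0.216%) do. The log2 difference was -0.75 ± 0.21 in OVX-ZA and -0.55 ± 0.23 in OVX-PPA, with edgeR adjusted p of 0.899 and 1.00, and -0.68 ± 0.21 in OVX-HA as a description. Without OVX-PBS 1 and OVX-HA 2 these were -0.52, -0.35 and -0.60.

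Among partners and processing enzymes of the lipase, hepatic lipase Lipc averaged 1.43 CPM in OVX-ZA against 3.33 in OVX-PBS (log2 difference -1.25 ± 0.33, edgeR adjusted p 0.899). Pcsk6, a proprotein convertase, averaged 40.4 against 52.4 (-0.37). Of the 14 genes of fatty acid uptake, binding and activation, 2 averaged higher and 12 lower in OVX-ZA, and 4 and 10 without OVX-PBS 1 and OVX-HA 2. All 6 genes of intracellular lipolysis averaged lower than OVX-PBS in OVX-HA, OVX-PPA and OVX-ZA, with medians of -0.405, -0.106 and -0.215, and 0 of them passed. Without OVX-PBS 1 and OVX-HA 2 the numbers lower were 6, 2 and 4 of 6, with medians of -0.19, 0.0192 and -0.0698. One of them, G0s2, an inhibitor of the triglyceride lipase ATGL, averaged 22.9 CPM in OVX-ZA against 41.9 (-0.87 ± 0.29, edgeR adjusted p 0.899). Of the PPAR receptors and fasting targets, Pdk4, which blocks pyruvate oxidation, averaged 228 CPM in OVX-HA against 458 in OVX-PBS (-1.01, a description), and the difference was -0.63 without OVX-PBS 1 and OVX-HA 2.

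In OVX-PBS against sham, all 6 lipoprotein receptor genes averaged lower, with a median of -0.252, while 48.6% of all genes tested were lower. Without OVX-PBS 1 and OVX-HA 2 it was 5 of 6, with a median of -0.184. Scarb1, the HDL receptor, averaged 33.5 against 50.2 CPM (log2 difference -0.58 ± 0.25, edgeR adjusted p 0.913). Its sham libraries read 77.9, 40.6 and 32.2 CPM, and without sham 1 the difference was -0.12. Slc27a3, an acyl-CoA synthetase of the fatty acid transport protein family, averaged 4.26 against 7.81 (-0.87 ± 0.35, edgeR adjusted p 0.913), with sham libraries of 13.1, 5.18 and 5.12 CPM, and without sham 1 the difference was -0.27. Cpt1a, the import enzyme of most tissues other than muscle, averaged 41.5 against 51.5 CPM (-0.31), while its muscle counterpart Cpt1b averaged 212 against 162 (0.39, but 0.15 without sham 2, 0.16 without OVX-PBS 1 and 0.60 without sham 3). None of these passed.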

How the data were processed

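RNA from mouse tibia had been sequenced as 75-nt single reads. STAR 2.7.8a, Bowtie2 2.2.5, CASAVA 1.8.1, Partek and the mm10 build appear, without roles, in the submitters' processing notes. Annotation, counting tool and use of strand: not given in the sources used here. The authors deposited estimated counts per gene symbol, not normalized (20.7% of values differ from a whole number by more than 0.01), and a second table of log2 values. That deposited log2 table equals log2(count + 1e-04) minus 1 constant per library within 0.003 and was not used further.

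Counts were rounded, filtered by group with edgeR 4.0.16 (R 4.3.3) and TMM-scaled. One quasi-likelihood fit over 14 libraries (9 residual degrees of freedom, biological coefficient of variation 25%) gave two-sided tests with Benjamini-Hochberg adjustment over 21761 genes (FDR 0.05). Levels are TMM-scaled CPM, and correlations between genes use log2 CPM with a prior count of 2. Marker list means and relations to them use log2 CPM with a smaller offset added to each count. Groups were taken from the sample labels. Coordinates and exons are those of GENCODE M21 on mm10, which may differ from the authors' annotation. Levels per kb divide by the union of all exons annotated for a gene, not by the length of the transcript expressed.

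The members and lists were chosen with earlier results of these data known. Named genes were the 7 members, listed pathway genes among the 2 smallest p per list and comparison, and the 3 genes (5 for Lpl) most correlated with each member at a mean of at least 10 CPM, predicted genes left out. Some genes that the rule selects are not reported here. Ucp1, Otop1, Elovl3, Cox8b, Alb and Glycam1 (marker lists), Dock6 and Ocstamp fall outside the rule and were chosen after their values were seen. Alternatives were DESeq2 1.42.0, RLE and upper quartile scaling, no filter, 2 groups only, a replicate block and left-out libraries. Scripts were tested on simulated data.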

Additional observations from a re-analysis of the deposited data

How the results depend on the processing

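Of 448 member differences recomputed under the alternatives, 426 stayed the same, 20 changed sign, 2 moved, and 0 passed the FDR. The same means direction and side of the threshold kept. For OVX-HA against OVX-PBS it means a shift of at most the within-group SD. The 2 that moved belong to that contrast and shifted by more, with direction kept. Its values enter these totals and the next counts as a description, and nothing is read from its calls. No member was called in 83 of 84 counts, and the DESeq2 likelihood ratio test called 1, Angptl8. Sign changes were as follows. Lmf1 in OVX-ZA against OVX-PBS became 0.0058 with RLE scaling, 0.00064 with no filter, 0.00071 with the DESeq2 Wald test and 0.0050 with only the 2 groups. Without the 2 libraries lacking central nervous transcripts Vldlr became 0.12 in OVX-ZA and 0.012 in OVX-PPA against OVX-PBS, and Angptl4 -0.056 in OVX-PPA. Leaving out 1 library at a time moved OVX-PBS against sham from -0.16 to 0.29 for Angptl4. Against OVX-PBS, OVX-PPA moved from -0.26 to 0.27 for Angptl4 and -0.25 to 0.0077 for Vldlr. OVX-ZA moved from -0.060 to 0.018 for Lmf1, -0.40 to 0.073 for Angptl4 and -0.15 to 0.098 for Vldlr. OVX-HA against OVX-PPA moved from -0.14 to 0.098 for Lmf1 and -0.50 to 0.053 for Angptl8. With OVX-PPA left at 1 library, that sample is assumed to vary like the others. The cause of these shifts was not tested.

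No pairing by replicate number was seen: same-numbered libraries had a mean correlation of deviations of -0.0432 over 26 pairs, against 0.0265 over 52 other pairs. Single pairs ran from -0.569 to 0.5 and from -0.59 to 0.7, so a mean near 0 cannot exclude pairing. With a replicate block 0 members were called in any comparison that was tested, and Angptl4 in OVX-PPA against OVX-PBS became -0.17. OVX-HA against OVX-PBS remains a description. In OVX-ZA against OVX-PBS the genes called went from 0 to 3 with no filter, 6 without the 2 libraries lacking nervous transcripts, 1 with only the 2 groups and 31 with DESeq2. For any difference among groups they went from 1 to 5 with no filter, 5 without the 2 libraries lacking nervous transcripts, 0 with the replicate block and 46 with DESeq2, and to 0 to 7 with 1 library left out (7 without OVX-HA 2). Leaving out libraries for the pathway genes and lists was added after seeing the data. The median of the 6 lipolysis genes in OVX-PPA against OVX-PBS turned from -0.106 to 0.0192 without the 2 libraries lacking nervous transcripts, and ran from -0.41 to 0.0441 with 1 library left out. Of the 35 marker relations 17 passed, 12 without the 2 farthest libraries, 27 with group-centred values and 14 without the 2 libraries lacking nervous transcripts. By Spearman rho, an alternative chosen after seeing the data, 18 passed. The 27 is likely too high, because that permutation did not allow for the group means removed. Leaving out libraries with lymph node transcripts was run only for OVX-PBS against sham. Groups of 2 or 3 libraries and 20 to 133 counts limit what Angptl8 can show.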
